A study of Mus musculus with 12 samples.

Results

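The Bcl2 family decides whether a cell keeps or loses the outer membrane of its mitochondria. Prosurvival members (Bcl2, Bcl2l1 and Mcl1) hold back the pore-forming effectors Bax and Bak1, and BH3-only members (Bcl2l11, Bid, Bad, Bbc3 and Bmf) either block the prosurvival proteins or engage the effectors directly. In bone marrow, Mcl1 is needed for the survival of haematopoietic stem cells, and Bcl2l11, which encodes Bim, is a main killer of blood cells deprived of cytokines.

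Every probe set annotated to 1 of these 10 genes was taken from the expression arrays of a study of NUP98-HOX fusion genes, which gave 24 of 22626 probe sets, for 9 of the 10 genes. Mcl1 had 6 probe sets, Bcl2l11 had 5, Bcl2l1 had 4, Bak1, Bid and Bad had 2 each, and Bcl2, Bbc3 and Bmf had 1 each. Bax had no annotated probe set and is not analysed here. The arrays compared 4 groups of 3: bone marrow cells carrying NUP98-HOXD13 (ND13), NUP98-HOXA10 (NA10), the ND13(N51S) form whose homeodomain does not bind DNA, or a vector with GFP only (GFP control). By the study's methods, all 4 groups were sorted GFP+ Sca-1+ Lin- cells, although the record of 1 GFP control array names GFP-negative cells. The cells came from (C57Bl/6Ly-Pep3b × C3H/HeJ) F1 mice older than 12 weeks that had received 150 mg/kg of 5-fluorouracil 4 days before harvest. The marrow was kept in interleukin-3, interleukin-6 and stem cell factor for 48 hours, cocultured for 2 days with irradiated GP+E86 virus producer cells and cultured for another 24 hours. Each fusion was expressed from a murine stem cell virus vector that also carried GFP, so that transduced cells could be sorted as a mixed population.

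Signals are linear and each array had been scaled to 1 trimmed mean. Between 14446 and 17695 probe sets per array were above the array's background, which lay between 28.5 and 69.8. The progenitor markers Kit, Cd34 and Flt3 were above background on all 12 arrays, while Ly6a, which encodes Sca-1, is not analysed here. Of 5 measured lineage genes that the sort should remove, 1 (Cd4) was above background on no array. Klf1 was above background on every array, Cd5 on 2 of 3 arrays in each group, and Cd8a and Cd79a on 1 to 3. The array labelled ND13(N51S) replicate 2 stood apart, with a 3′ to 5′ Gapdh signal ratio of 48.9 against at most 2.71 on the other arrays. The experiment record of the array labelled GFP control replicate 1 names GFP-negative cells of an ND13(N51S) culture, and the label was kept. Values without these arrays are given beside the results they touch most.

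Of the 24 probe sets, 15 were above background on all 12 arrays, 8 on some of them and 1, for Bcl2l1, on none. The plot of signals by array shows each gene at its brightest probe set.

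**Figure D1:**
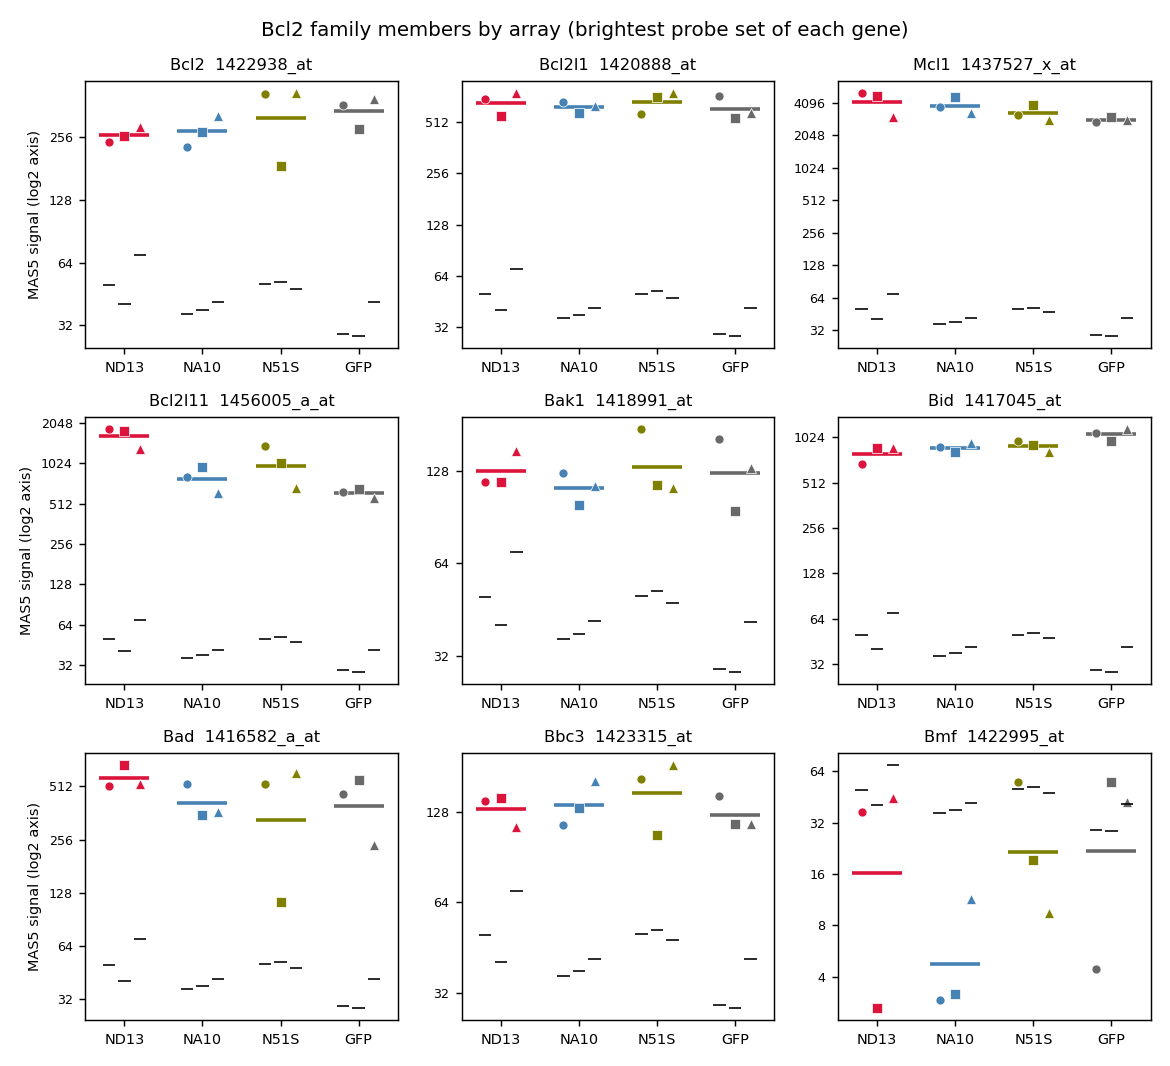
MAS5 signal (log2 axis) of the brightest probe set of each of 9 Bcl2 family genes on 12 arrays, by group (N51S is ND13(N51S), GFP is GFP control). Replicate 1 is a circle, 2 a square and 3 a triangle, with coloured bars at the group means of log2 signal and short black bars at each array's background. Bcl2l11 is higher on all 3 ND13 arrays than on all 3 GFP control arrays, whereas Bmf lies near or under background.

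A probe set was called where limma's adjusted p was under 0.05 and the change at least 1.5-fold. None of the 24 was called in any of 8 comparisons in the fit without a replicate block (a term for the replicate number, taken to mark a shared experiment). Few probe sets were called at all in that fit: 0.0884% in ND13, 0.0133% in NA10 and 0% in ND13(N51S) against GFP control. The shares were 0.0133% in ND13 and 0.00884% in NA10 against ND13(N51S), and 0.0177% in ND13 against NA10. They were 0.0354% in ND13 and NA10 against ND13(N51S) and GFP control, and 0.0265% in all 3 fusions against GFP control. The methods' t-test called no member either after Benjamini-Hochberg adjustment. At an unadjusted p under 0.05, the member probe sets that passed against GFP control were 6 in ND13 (5.73% of all probe sets did), 0 in NA10 (4.41%) and 3 in ND13(N51S) (7.65%). Against ND13(N51S) they were 4 in ND13 (7.87%) and 2 in NA10 (8.6%), and 2 passed in ND13 against NA10 (3.52%). In ND13 and NA10 against the other groups 5 passed (7.99%), and in all 3 fusions against GFP control 4 did (5.53%). The 6 in ND13 against GFP control came from only 3 genes, 5 higher (Mcl1 and Bcl2l11) and 1 lower (Bid). Probe sets of the same gene are not independent, so these counts are not counts of genes.

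Bcl2l11 (Bim, a BH3-only killer) had the largest change against GFP control among the members' probe sets that were above background on all 12 arrays. It was higher in ND13 cells than in GFP control cells by 2.64-fold at its brightest probe set and by 2.08-fold at the next. The brightest probe set did not pass the test without a replicate block and passed with one, whereas the next passed in neither fit. Because the results turn on this gene, its promoter is given. FOXO factors, which switch Bcl2l11 on when cytokine signals fade, bind a core of GTAAACA. The 250 bases before the first of 2 annotated starts (RefSeq, GRCm38.p6, chr2:128125788-128126037, plus strand) are shown because they hold 1 such core, in capitals.
Bcl2l11 start 1: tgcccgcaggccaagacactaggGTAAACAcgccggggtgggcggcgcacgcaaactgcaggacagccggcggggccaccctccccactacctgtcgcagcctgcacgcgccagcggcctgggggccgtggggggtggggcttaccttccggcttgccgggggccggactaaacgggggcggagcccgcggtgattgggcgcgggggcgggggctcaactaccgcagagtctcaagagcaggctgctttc
The same letters, on either strand, were in 1040 of 32851 promoter windows of that length (3.17%). The window of the second start (chr2:128127325-128127574, plus strand) had no match. TGATTTAT, a site for PBX bound together with posterior HOX proteins, was in neither window and in 0.837% of all windows. Both windows were rich in G and C (72% and 73.2%). These matches describe the letters only, and no binding was measured.

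At probe set 1456005_a_at, Bcl2l11 had signals of 1845, 1769 and 1317 in ND13 cells, against 630, 656 and 569 in GFP control cells. NA10 cells gave 809, 955 and 613, and ND13(N51S) cells gave 1372, 1030 and 664. All 3 ND13 arrays lay above all NA10 and GFP control arrays, and the lowest ND13 array lay under the highest ND13(N51S) array. The log2 change of ND13 against GFP control was 1.40 ± 0.27 (SE, n = 3 each, 95% interval 0.82 to 1.97), which ranked 35 among 22626 probe sets by p. Its adjusted p was 0.0949 (limma, Benjamini-Hochberg), above the threshold of 0.05. With the replicate number as a block the SE was 0.18 and the adjusted p was 0.0120, so Bcl2l11 rose at this probe set in that fit.

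With the block, 1 of 24 member probe sets was called higher in ND13 cells than in GFP control cells, as 0.274% of all probe sets were. Array weights also gave the call (adjusted p = 0.0239), as did leaving out ND13(N51S) replicate 3 (0.0393), and plain eBayes did not (0.277). The blocked call was lost without ND13 replicate 1 (adjusted p = 0.132), 2 (0.0631) or 3 (0.0668) and without GFP control replicate 1 (0.0985) or 2 (0.0685). Without both arrays in doubt the log2 change was 1.41 with an adjusted p of 0.196, or 1.30 and 0.0155 with the block.

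The other Bcl2l11 probe sets differed in how far they followed. Probe set 1435448_at had 906, 574 and 643 in ND13 cells, against 336, 319 and 347 in GFP control cells. NA10 cells had 450, 392 and 343 there, and ND13(N51S) cells had 519, 687 and 447. ND13 and ND13(N51S) arrays lay above every GFP control array, and NA10 arrays did not. In ND13(N51S) against GFP control 8.5% of all probe sets were separated in that direction. The log2 change of ND13 against GFP control was 1.06 ± 0.24 (SE), with an adjusted p of 0.199, or 0.0806 with the block. Over the 12 arrays its log2 signal followed that of 1456005_a_at with r = 0.85, a value that includes the group differences both share.

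Probe set 1456006_at had a mean of 165 ± 36.0 in ND13 cells and 108 ± 39.5 in GFP control cells (SD, n = 3 each). Its log2 change was 0.66 ± 0.37 (SE, adjusted p = 0.941). Probe set 1435449_at gave 0.25 ± 0.43 for the same comparison, and 1426334_a_at was above background on 4 of 12 arrays and is not read further. The 5 probe sets thus did not give 1 value for the gene.

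**Figure D2:**
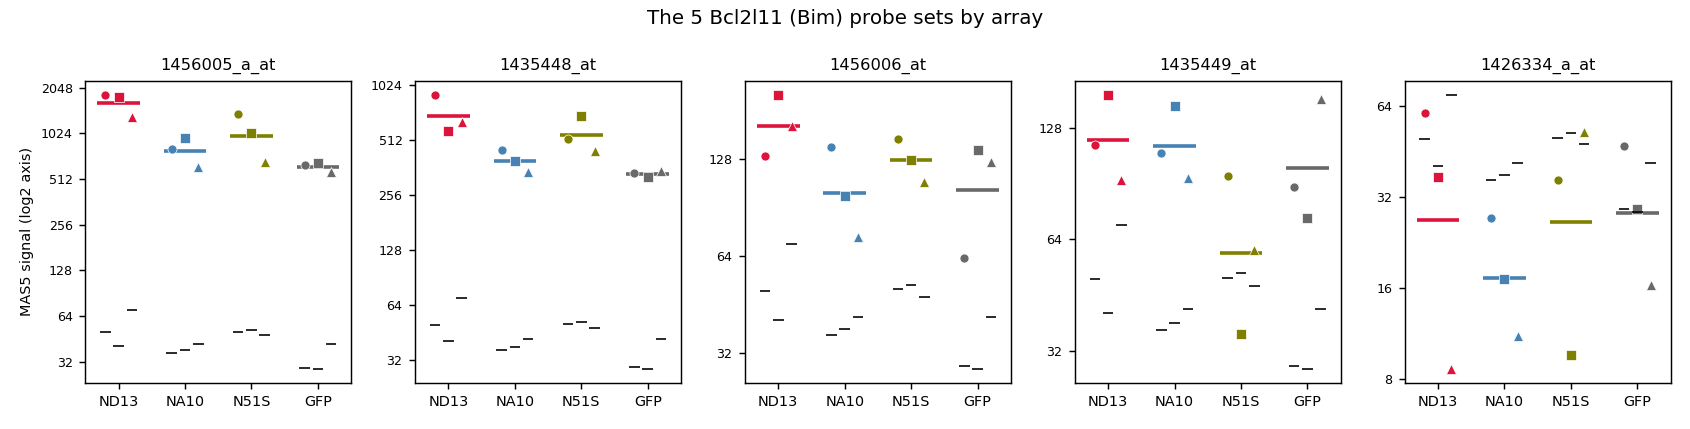
MAS5 signal (log2 axis) of the 5 Bcl2l11 probe sets on each array, by group, with symbols and bars as in the plot of all members. In 1456005_a_at and 1435448_at the 3 ND13 arrays sit above the 3 GFP control arrays, whereas 1426334_a_at is above background on 4 of 12 arrays.

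Between the fusions, Bcl2l11 was higher in ND13 cells than in NA10 cells by 1.06 ± 0.27 (log2, SE) at 1456005_a_at and by 0.82 ± 0.24 at 1435448_at. The adjusted p was 0.788 and 0.971 (limma), or 0.141 and 0.595 with the block.  The arrays of the groups did not overlap at either probe set, as 5.4% of all probe sets did in that direction. Against ND13(N51S), ND13 gave 0.73 ± 0.27 at 1456005_a_at (adjusted p = 0.558), 0.36 ± 0.24 at 1435448_at (adjusted p = 0.739) and 1.02 ± 0.43 at 1435449_at (adjusted p = 0.597). Without ND13(N51S) replicate 2 these Bcl2l11 differences were 0.77, 0.53 and 0.66.

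At these same 2 brightest Bcl2l11 probe sets, the ND13(N51S) mean lay between those of ND13 and NA10. The ND13(N51S) log2 change against GFP control was 0.67 ± 0.27 at 1456005_a_at (adjusted p = 0.622) and 0.70 ± 0.24 at 1435448_at (adjusted p = 0.548). Without both arrays in doubt these were 0.64 and 0.54 (adjusted p = 0.834 and 0.813). Bcl2l11 1435449_at went the other way, with means of 63.4 ± 29.9 in ND13(N51S) cells, 122 ± 33.0 in ND13 cells, 117 ± 27.5 in NA10 cells and 105 ± 42.7 in GFP control cells (SD). ND13(N51S) differed from GFP control there by -0.77 ± 0.43 (SE, adjusted p = 0.699), or -0.49 without both arrays in doubt, and NA10 was higher than ND13(N51S) by 0.97 ± 0.43 (adjusted p = 0.561), or 0.61 without them. Against GFP control, NA10 gave 0.34 ± 0.27 at 1456005_a_at and 0.23 ± 0.24 at 1435448_at (SE, adjusted p near 1 for both).

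Dividing each array by the GFP control array of the same number set the fusions beside the control within each replicate number. At 1456005_a_at the ND13 ratios were 2.93, 2.70 and 2.32, the NA10 ratios were 1.28, 1.46 and 1.08, and the ND13(N51S) ratios were 2.18, 1.57 and 1.17. All 9 ratios were above 1, and every ND13 ratio was above every other one. Arrays numbered 3 were on average -0.33 from their group means on the log2 scale, against 0.19 and 0.14 for numbers 1 and 2. At 1435448_at the ND13 ratios were 2.69, 1.80 and 1.85, the NA10 ratios were 1.34, 1.23 and 0.990, and the ND13(N51S) ratios were 1.54, 2.16 and 1.29. Here 8 of 9 ratios were above 1 and the ND13 and ND13(N51S) ratios overlapped. The ratios of number 1 divide by the GFP control array in doubt, and those of numbers 2 and 3 do not. The 3 comparisons share their GFP control arrays.

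**Figure D3:**
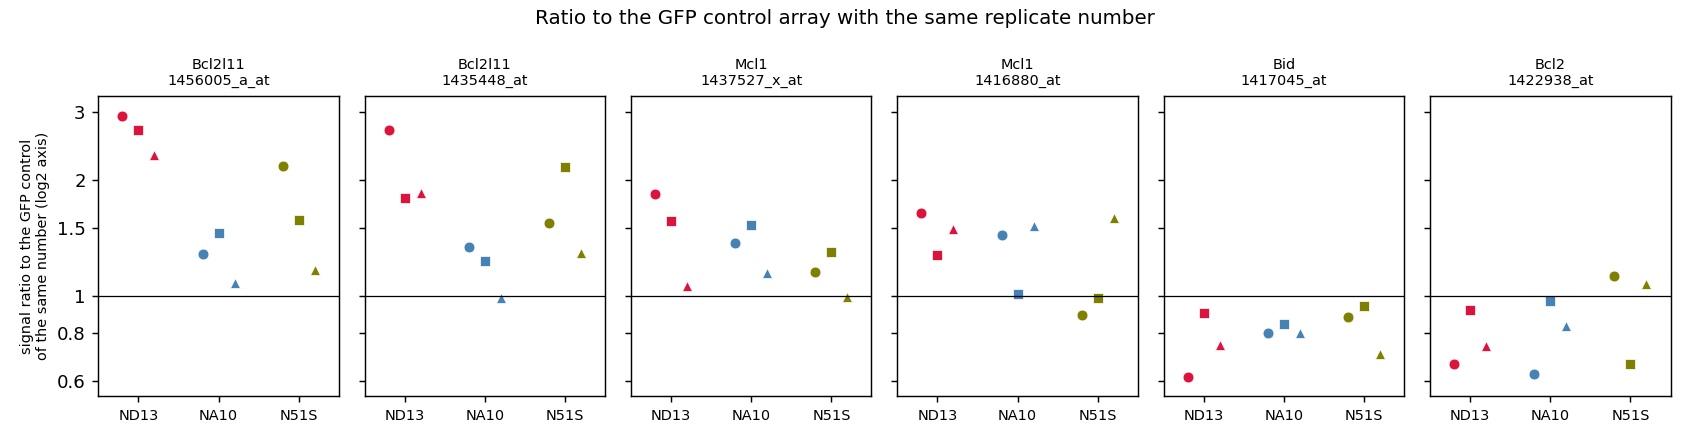
Ratio of each fusion array's signal to the GFP control array of the same replicate number (log2 axis) for 6 probe sets. Replicate 1 is a circle, 2 a square and 3 a triangle, and the line marks a ratio of 1. Bcl2l11 1456005_a_at has ND13 ratios of 2.32 to 2.93, and Bid 1417045_at is under 1 for all 9 arrays.

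Among 7 mature myeloid markers, 1 was called higher in ND13 cells than in GFP control cells with the block, as 0.274% of all probe sets were. Adgre1, which encodes the macrophage surface protein F4/80, had a mean signal of 1072 ± 283 in ND13 cells, 647 ± 341 in NA10 cells, 682 ± 121 in ND13(N51S) cells and 342 ± 82.2 in GFP control cells (SD, n = 3 each). Its log2 change in ND13 cells was 1.63 ± 0.33 (SE), with an adjusted p of 0.132, or 0.0427 with the block. Csf1r, the receptor for macrophage colony-stimulating factor, averaged 3461 ± 745 in ND13 cells, 2148 ± 475 in NA10 cells, 3927 ± 1657 in ND13(N51S) cells and 1887 ± 1006 in GFP control cells. Csf1r gave 0.98 ± 0.35 for ND13 against GFP control (adjusted p = 0.702, or 0.0806 with the block) and had its highest mean in ND13(N51S) cells. The group means of Adgre1 ran in the same order as those of Bcl2l11 1456005_a_at, and those of Csf1r did not. How many of all probe sets shared that order was not counted. Both markers were picked after their values were seen. Of the other 5, Ltf gave 1.01 ± 0.70, Camp 0.40 ± 0.77, Cd14 0.26 ± 0.34, Elane -0.18 ± 0.41 and Mpo -0.58 ± 0.42 in that comparison, and none was called. The summed signal of the 7 ranged from 9123 to 16575 in ND13, 8391 to 13113 in NA10, 15748 to 17939 in ND13(N51S) and 10260 to 13101 in GFP control cells, and at least 6 of the 7 were above background on all arrays of each group. The summed signal of 3 mast cell and basophil genes was 2545 to 2784 in ND13, 2476 to 4359 in NA10, 4047 to 6888 in ND13(N51S) and 2022 to 3338 in GFP control cells. For 2 megakaryocyte genes, Itga2b and Pf4, the sum was 4813 to 5714 in ND13 and 5734 to 6146 in NA10 cells. It was 4649 to 6945 in ND13(N51S) and 2490 to 4079 in GFP control cells. Every fusion array thus lay above every control array. In all 3 fusions against GFP control Pf4 gave 0.80 ± 0.18 (SE, adjusted p = 0.301, or 0.0869 with the block) and Itga2b 0.27 ± 0.23. Neither was called. The part of these cell types in the Bcl2l11 result was not tested. In sorted populations, more cells of a type and more RNA per cell cannot be told apart.

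Mcl1, a short-lived prosurvival protein, was above background on every array at all 6 of its probe sets. In ND13 cells all 6 were higher by value than in GFP control cells, with log2 changes of 0.22 to 0.65, and they stayed above 0 under median centring and quantile normalisation. None was called. Probe set 1437527_x_at had 5033, 4709 and 3000 in ND13 cells, against 2734, 3005 and 2836 in GFP control cells. NA10 cells had 3752, 4581 and 3258, and ND13(N51S) cells had 3158, 3910 and 2814. The third ND13 array lay within 5 units of the highest GFP control array, so the groups overlapped.

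The log2 change at 1437527_x_at was 0.54 ± 0.21 in ND13 cells (SE, adjusted p = 0.755), 0.42 ± 0.21 in NA10 cells (adjusted p near 1) and 0.19 ± 0.21 in ND13(N51S) cells (adjusted p = 0.840). Probe set 1416881_at had 842, 682 and 863 in ND13 cells, 816, 511 and 623 in NA10 cells, 422, 586 and 810 in ND13(N51S) cells and 590, 436 and 494 in GFP control cells. Without both arrays in doubt, the ND13 change at 1437527_x_at was 0.51 and the ND13(N51S) change was 0.03. At 1416881_at the ND13 arrays lay above all GFP control arrays, with a log2 change of 0.65 ± 0.26 (adjusted p = 0.771). Probe set 1416880_at had 1519, 1585 and 1372 in ND13 cells, 1325, 1252 and 1398 in NA10 cells, 825, 1226 and 1471 in ND13(N51S) cells and 924, 1240 and 922 in GFP control cells. The ND13 and NA10 arrays there lay above all 3 GFP control arrays, whereas the ND13(N51S) arrays lay on both sides of them. In NA10 against GFP control 5.6% of all probe sets were separated upward, and 6.84% were in ND13.

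Setting ND13 and NA10 together against ND13(N51S) and GFP control asks which genes followed the fusions that can bind DNA. Mcl1 gave log2 differences of 0.38 ± 0.16 at 1416880_at, 0.38 ± 0.15 at 1437527_x_at and 0.45 ± 0.18 at 1456243_x_at (SE). The adjusted p was 0.560 to 0.577 without the block and 0.204 to 0.341 with it. Of the 24 probe sets, 5 had an unadjusted p under 0.05, all higher, against 3.79% of all probe sets. They were those 3, Bcl2l11 1456005_a_at (0.53 ± 0.19) and Bad 1416583_at (0.82 ± 0.34). At Bcl2l11 1456005_a_at NA10 itself was lower than ND13(N51S) by value (-0.33 ± 0.27), so the pooled difference there came from ND13. Without ND13(N51S) replicate 2 the difference at Bad 1416583_at was 0.44 ± 0.17 (adjusted p = 0.504), and without both arrays in doubt it was 0.41 ± 0.18. The brighter Bad probe set, 1416582_a_at, gave 0.42 ± 0.37 (adjusted p = 0.824). Probe sets with _x_ in their names hold probes that can match other transcripts. Over the 12 arrays 1437527_x_at, 1456243_x_at and 1456381_x_at followed each other (r = 0.74 to 0.88) more closely than the other Mcl1 probe sets followed them. Those gave r = 0.36 to 0.52 for 1416880_at, 0.20 to 0.47 for 1448503_at and 0.13 to 0.23 for 1416881_at.

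The other prosurvival genes differed less. Bcl2, the founding member, had a single probe set with 244 to 287 in ND13 cells, 231 to 325 in NA10 cells, 187 to 417 in ND13(N51S) cells and 280 to 388 in GFP control cells. Its log2 change in ND13 cells was -0.38 ± 0.30 (SE, 95% interval -1.04 to 0.27), and the groups overlapped. Bcl2l1, which encodes Bcl-xL, had 557 to 757 in ND13 cells, 580 to 670 in NA10 cells, 569 to 753 in ND13(N51S) cells and 540 to 730 in GFP control cells at 1420888_at. The log2 change there was 0.12 ± 0.21 (95% interval -0.33 to 0.57) in ND13 cells, 0.04 ± 0.21 in NA10 cells and 0.14 ± 0.21 in ND13(N51S) cells. Of its other 3 probe sets, 2 were above background on 3 arrays each and 1 on none.

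Bid, the BH3-only protein that caspase-8 cleaves, was the member whose arrays separated all fusions from the control. At 1417045_at it had 678 to 872 in ND13 cells, 817 to 933 in NA10 cells, 825 to 965 in ND13(N51S) cells and 968 to 1165 in GFP control cells. All 9 fusion arrays lay below all 3 GFP control arrays, as 0.371% of all probe sets did, but by a small margin. The log2 difference of all 3 fusions against GFP control was -0.32 ± 0.15 (SE, adjusted p = 0.902), where ND13 alone gave -0.42 ± 0.18, NA10 alone -0.29 ± 0.18 and ND13(N51S) alone -0.26 ± 0.18. Without both arrays in doubt the difference of all 3 fusions was -0.31 (adjusted p = 0.973). The second Bid probe set, 1448560_at, was dim, above background on 7 of 12 arrays, and its lowest signal of 8.26 was on ND13(N51S) replicate 2.

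Bad, which growth factor signalling holds inactive by phosphorylation, had a low value on 1 array. Probe set 1416583_at had 319, 298 and 268 in ND13 cells, 198, 318 and 241 in NA10 cells, 173, 35.5 and 179 in ND13(N51S) cells and 206, 264 and 210 in GFP control cells. The 35.5 was on the array with the high Gapdh ratio, under that array's background of 51.9, and 1416582_a_at was also lowest there, at 114. The log2 difference of ND13(N51S) against GFP control was -1.13 ± 0.49 (SE, adjusted p = 0.637), and -0.36 ± 0.25 (adjusted p = 0.788) without that array. For ND13 against ND13(N51S) it was 1.51 ± 0.49 (adjusted p = 0.477), and 0.74 ± 0.25 (adjusted p = 0.547) without it. The other 2 ND13(N51S) arrays also lay below all ND13, NA10 and GFP control arrays at 1416583_at. At the brighter 1416582_a_at the same 2 arrays had 528 and 610, within or above the GFP control arrays (462, 560 and 237). Over all probe sets, ND13(N51S) arrays lay wholly below the GFP control in 3.45%, below ND13 in 4.28% and below NA10 in 4.3%. The part of RNA quality in that order was not tested.

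Bak1, the effector that was measured, had 118, 118 and 148 in ND13 cells, 126, 99.3 and 114 in NA10 cells, 174, 115 and 112 in ND13(N51S) cells and 162, 94.6 and 130 in GFP control cells at 1418991_at. The groups overlapped throughout, with a log2 change of 0.01 ± 0.30 in ND13 cells (SE, 95% interval -0.64 to 0.67). Probe set 1425716_s_at had 4.53, 8.61 and 17.5 in ND13 cells, 37.2, 5.69 and 27.6 in NA10 cells, 22.9, 68.6 and 93.1 in ND13(N51S) cells and 5.48, 12.7 and 36.0 in GFP control cells. It was above background on 2 ND13(N51S) arrays and 1 NA10 array and on none of the others. With each GFP control signal raised to its array's background, ND13(N51S) averaged 1.62 times GFP control, or 1.34 times without both arrays in doubt. The adjusted p of the measured difference was 0.665 (limma). Background was 50.4, 51.9 and 47.8 on the ND13(N51S) arrays, against 29.2, 28.5 and 41.5 on the GFP control arrays. The ratio is therefore not a lower limit of the change. Of the 2 ND13(N51S) arrays above background, 1 was the array with the high Gapdh ratio. The array at 22.9, under background, entered the mean as measured. The same ratio of ND13(N51S) over ND13 was 1.01, or 0.887 without both arrays in doubt.

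Bbc3, the p53 target Puma, had 113 to 142 in ND13 cells, 115 to 162 in NA10 cells, 107 to 183 in ND13(N51S) cells and 116 to 144 in GFP control cells. Its log2 change was 0.06 ± 0.29 in ND13 cells, with a 95% interval of -0.56 to 0.69. Bmf, a BH3-only protein tied to the cytoskeleton, was above background on 3 of 12 arrays, 1 of ND13(N51S) and 2 of GFP control, and gives no comparison.

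**Figure D4:**
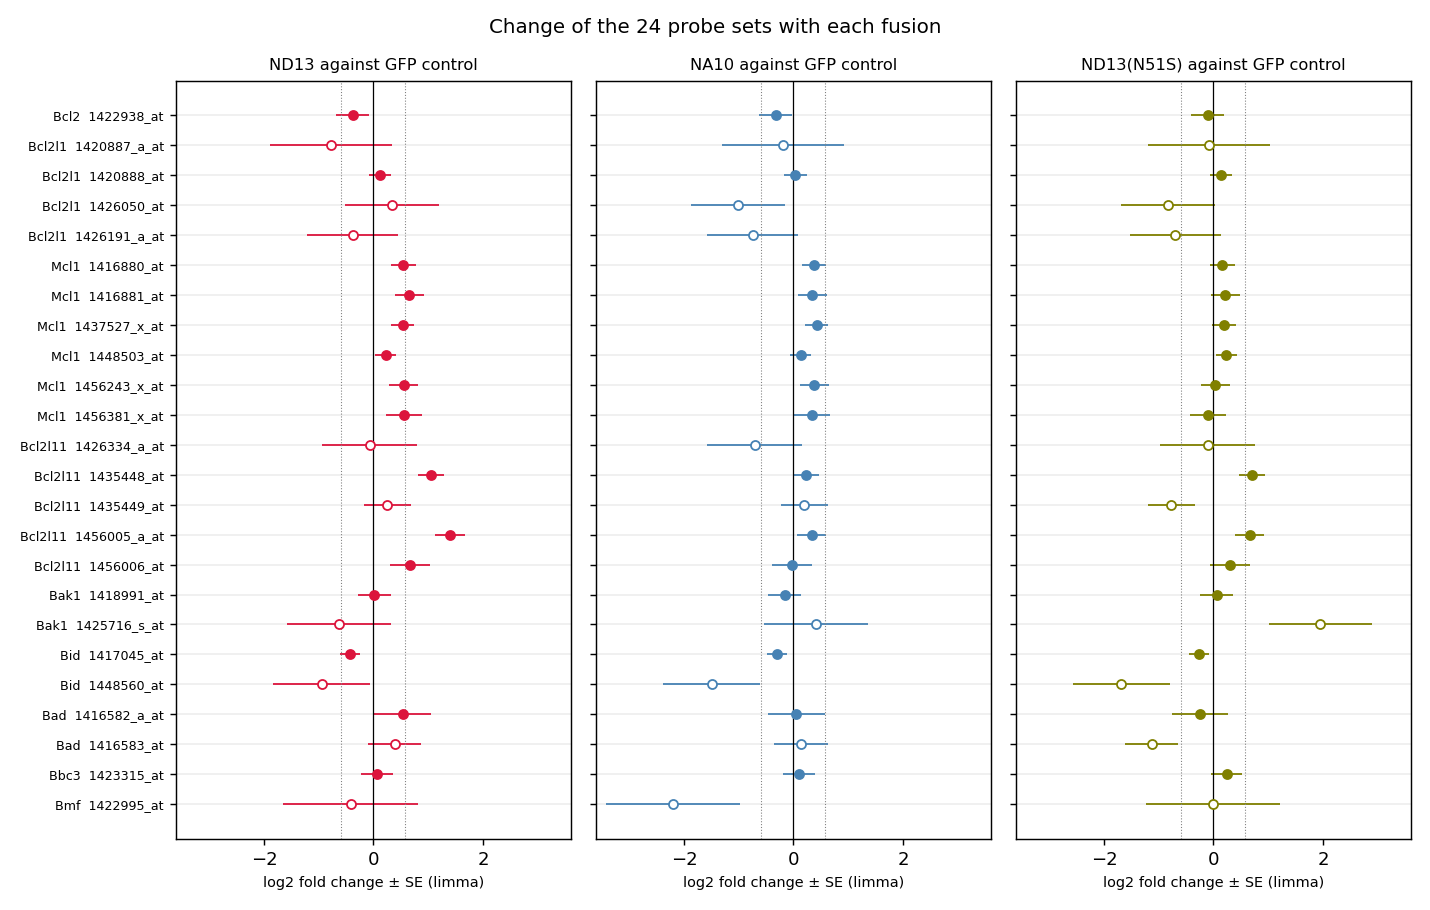
Log2 change ± SE (limma, n = 3 arrays a group) of all 24 probe sets for ND13, NA10 and ND13(N51S) against GFP control. Filled points were above background on all 12 arrays, open points on fewer, and dotted lines mark 1.5-fold. In ND13 cells Bcl2l11 1456005_a_at lies at 1.40 and the 6 Mcl1 probe sets lie between 0.22 and 0.65, while the open points have the widest bars.

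Taking the family as a whole, 16 of 24 probe sets were higher by value in ND13 cells than in GFP control cells, against 50% of all probe sets, with a median log2 change of 0.24 against 0.00035. In NA10 cells 14 were higher, against 48.7%, and in ND13(N51S) cells 12, against 56.2%. After median centring of each array the counts were 14 in ND13 (42.5% of all probe sets), 14 in NA10 (45.3%) and 10 in ND13(N51S) (46.7%). In ND13 cells 6 probe sets, for Mcl1, Bcl2l11 and Bad, had all 3 arrays above all 3 GFP control arrays, as 6.84% of all probe sets did. The counts lean on Mcl1 and Bcl2l11, which hold 11 of the 24 probe sets. Over 1 probe set per gene the median in ND13 cells was 0.06.

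Genes that act beside or after the family were also tested. Of 2 measured prosurvival relatives, 8 other effector or BH3-type genes and 17 genes of the execution steps, none was called by limma in any of 8 comparisons, with or without the block. In ND13 against GFP control, 1 of the 8 and 1 of the 17 passed an unadjusted p under 0.05 and 1.5-fold, as 4.93% of all probe sets did. Casp9, the caspase that the apoptosome activates, averaged 263 ± 30.2 in ND13 cells, 177 ± 15.6 in NA10 cells, 187 ± 58.2 in ND13(N51S) cells and 150 ± 48.5 in GFP control cells (SD). Its log2 change in ND13 cells was 0.86 ± 0.32 (SE, adjusted p = 0.711). Bcl2l14, a divergent family member, gave -1.15 ± 0.51 (adjusted p = 0.835) and was above background on 2 of 3 ND13 arrays. Diablo, an inhibitor of the inhibitors of apoptosis, gave 0.75 ± 0.35 (adjusted p = 0.878), and Pmaip1, which encodes the Mcl1-binding protein Noxa, gave 0.94 ± 0.47 (adjusted p = 0.892). In ND13 against NA10 the smallest p was that of Birc3, an inhibitor of apoptosis protein, with means of 1271 ± 212 in ND13 cells and 602 ± 177 in NA10 cells (log2 difference 1.11 ± 0.34, adjusted p near 1, or 0.722 with the block).

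The genes most like each array-by-array member were sought among 10374 others by the correlation of log2 signal over the 12 arrays, a description in which the group structure and shared scaling take part. Bcl2l11 was followed most closely by Gpr137b (r = 0.93), Cd52 (0.91) and Meg3 (0.91). Mcl1 was followed by Ncdn (0.91), Il15 (0.90) and Sesn1 (0.89). For Bad the closest were Irf8 (0.93), Chd4 (0.91) and Erp44 (0.91), and for Bak1 they were Arid1a (0.86), Spdl1 (0.85) and Tmem132a (0.84). The Bad probe set used, 1416582_a_at, had its lowest signal (114) on ND13(N51S) replicate 2, the array with the high Gapdh ratio. These correlations were not computed without that array.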

How the data were processed

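RNA from 12 samples was hybridised to Affymetrix MOE430A arrays. Per the labels, the deposited values were MAS5 signal intensities on a linear scale. The authors had scaled each array to 1 trimmed mean (2% removed from each end), and replicates were not pooled. The study's own methods describe GC-RMA values, which were not used here. Values were taken as log2 (floor 0.01) and fitted with limma 3.58.1 in R 4.3.3 (1 fit of 4 group means, trended robust eBayes, Benjamini-Hochberg over 22626 probe sets). Of those, 20380 carried 1 gene symbol, 691 several and 1555 none in the platform annotation. Calls needed an adjusted p under 0.05 and a change of 1.5-fold or more. Background on each array was the 95th percentile of 27 unspiked bacterial control probe sets.

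Same-numbered arrays were taken to share an experiment, which neither the titles nor the paper's methods state. By deviations from the group means 12 of 12 arrays lay closest to their own number. These deviations correlated at 0.11 to 0.60 over the 11313 probe sets above the median mean (0.03 to 0.16 over all probe sets). That probe-set range was chosen after the calls of both fits were known. The fit with that number as a block stands beside a result whose call it changes. Replicates came from independent transductions, but nothing names separate mice for each array, so p-values measure the spread between these arrays. Members shown array by array had a probe set called with or without the block, or at an unadjusted p under 0.05 and at least 1.5-fold in any of 8 comparisons. Other genes of the pathway were named where called, otherwise at most 4 in a comparison by smallest p. The members and gene lists were chosen with earlier results of these data known. The fit was tested on simulated data. Alternatives were a dim-probe filter, a pseudocount of 32, a floor at background, quantile normalisation, median centring, plain eBayes, only the compared arrays, the methods' t-test, array weights, the block and left-out arrays.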

Additional observations from a re-analysis of the deposited data

How the results depend on the processing

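In ND13 against GFP control, where no member was called in the fit without the block, the replicate block gave 1 call (Bcl2l11), array weights 1 and a floor at each array's background 3. Of those 3, Bcl2l1 1426191_a_at was above background on no array, so its 2 groups held only background levels. Leaving out 1 array gave 0 to 1. Settings chosen after seeing the data kept the block: it gave 1 call without both arrays in doubt, 1 after median centring, 1 after quantile normalisation and 0 to 2 without 1 array. For ND13 against NA10 the block gave 1 call without both arrays in doubt and 0 to 1 without 1 array. For all 3 fusions against GFP control the range was also 0 to 1. Both of those single calls came without ND13(N51S) replicate 2. The cause was not tested. In the other comparisons no alternative called a member, and the block changed no other call. Of 21 log2 changes followed through 597 alternative values, 578 kept direction and side of the threshold, 19 passed it and 0 changed sign. Those were changes that had passed an unadjusted limit or belonged to the brightest probe sets. Over all 24 probe sets and 8 comparisons, 224 of 4288 values changed sign, among them 23 of 542 in ND13 and 40 of 542 in ND13(N51S) against GFP control. The fit on the compared arrays only has no separate value for the 2 comparisons that use all 12. With 3 arrays a group, small changes of dim probe sets could not be resolved, and for Bmf and 3 of 4 Bcl2l1 probe sets signal over background was the limit.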
